A study of Mus musculus with 5 samples.

Results

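Clusterin (Clu) and apolipoprotein E (Apoe) encode secreted proteins that bind lipids and that bind some of the same receptors on other cells. Clusterin is an extracellular chaperone, which holds misfolded proteins in solution and inhibits the terminal complement complex, and it is known to be induced in stressed and dying tissue. Apolipoprotein E is the ligand through which cell surface receptors take up lipoproteins, and macrophages that clear lipid-rich debris make it in large amounts. The pair was taken as 2 of the 13711 genes shared by the expression tables of 5 heart sections, and both passed the filter that left 12933 genes (1 CPM or more on average in 2 or more sections, where CPM is a count scaled to the same total in every spot). Both genes were chosen by their higher mean CPM after injury, so the injured and sham levels are given as a description with no test. Clu lies on chromosome 14 of GRCm38, from 65968483 to 65981547 on the plus strand, and Apoe on chromosome 7, from 19696109 to 19699188 on the minus strand. Both are protein-coding genes, and a spot's value counts captured polyadenylated transcripts of the whole gene, not of any isoform.

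The sections were transverse cuts of hearts of wild-type C57BL/6 mice, and no group carried a transgene or deletion. The mice had their left anterior descending artery tied (myocardial infarction, MI) or had sham surgery on postnatal day 1. Hearts were taken 3 or 7 days after surgery and cut 200 µm below the suture. The sham group had 1 section at day 3 (544 spots) and 1 at day 7 (960). The MI group had 1 section at day 3 (376 spots) and 2 at day 7 (693 and 791), so that only MI day 7 had a replicate. On the Visium slides used, each barcoded spot reads RNA from an area wide enough for more than a single cell, so fewer cells of a type and less RNA per cell cannot be told apart. The deposited metadata held 11 cell type scores per spot that add to 1, estimated from an earlier single-nucleus reference. Among them 5 stand for cardiomyocyte states (CM1 to CM5). The others stand for fibroblasts (FB), vessel endothelium (EC), endocardium (EndoEC), macrophages, epicardium (EPI) and mural cells (Pericyte/SMC). The study describes CM4 as the injured neonatal heart's cardiomyocyte state that enters the cell cycle. A spot is called X-dominant below where score X was the highest of the 11.

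Median depth ran from 20842 to 53940 UMIs per spot, and cardiomyocyte markers were high in every section, with Tnnt2 between 4749 and 5295 CPM. MI day 7 replicate 1 stood apart with 24.6% of its values from mitochondrial genes, against 13.8% to 15.7% in the other sections. All 10 macrophage markers of the list used and 5 of 5 blood markers were higher in every MI section than in every sham section. The macrophage markers summed to 137 and 147 CPM in the sham sections, 1066 at MI day 3, and 220 and 321 in MI day 7 replicates 1 and 2. Fibroblast markers summed to 4215 and 4483 CPM in the sham sections and 5733, 5162 and 7072 CPM in the MI sections, with 4 of 7 higher in every MI section. Stressed cardiomyocyte markers (Nppa, Nppb, Ankrd1, Xirp2, Myh7 and Acta1) summed to 3399 and 2267 CPM in sham and 12480, 1945 and 4439 CPM in MI, so that replicate 1 lay below both sham sections, and 0 of 6 were higher in every MI section. The part of these lists in the levels of Clu and Apoe was not tested. In the MI sections 21 spots had no neighbouring spot (10, 5 and 6), several of them with very few raw UMIs, the lowest with 19. Leaving them out moved the mean of Clu at MI day 3 from 1159 to 1162 CPM and that of Apoe from 868 to 873 CPM. Between 3 and 449 spot barcodes were shared by a pair of sections, which use one set of slide barcodes.

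Clu and Apoe were both highest at MI day 3 and next highest in MI day 7 replicate 2, and the range of Apoe was smaller. Mean Clu was 68.8 CPM in the sham day 3 section, 68.1 in the sham day 7 section and 1159 in the MI day 3 section. It was 63.7 in MI day 7 replicate 1 and 225 in replicate 2, a mean of 144 ± 114 CPM (SD, n = 2). The MI and sham groups of Clu therefore overlapped, because replicate 1 lay below both sham sections. That order turned on the scaling, since replicate 1 was 1.02 times the sham day 7 section when mitochondrial and haemoglobin genes were left out of the totals and 0.936 times when they were kept. At day 3 the MI section had 16.8 times the Clu of the sham section, and at day 7 replicate 2 had 3.31 times.

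Mean Apoe was 187 CPM at sham day 3 and 121 CPM at sham day 7. It reached 868 CPM at MI day 3, and it was 220 and 351 CPM in MI day 7 replicates 1 and 2 (285 ± 92.9 CPM, SD, n = 2). Every MI section was above both sham sections, which also held for 6.84% of all 12933 genes filtered, and nothing is read from it since this contrast chose the gene. The MI section of day 3 had 4.63 times the Apoe of its sham section, and replicates 1 and 2 had 1.81 and 2.89 times the Apoe of the sham day 7 section. The sham day 3 table was the only one of raw counts. It held 764 UMIs of Clu (exact Poisson 95% interval 711 to 820) and 2009 of Apoe (1922 to 2099), intervals that cover counting error only.

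The spread over spots differed as the means did. Clu at MI day 3 had a median spot of 370 CPM, a 90th percentile of 2811 CPM and a highest spot of 11031 CPM, and no spot was at 0. The median spot of the same gene was 49.5 CPM in the sham day 3 section and 44.6 in the sham day 7 section, where 32.7% and 27.6% of spots were listed at 0. In MI day 7 replicate 2 the top 5% of spots (40) held 45.6% of all Clu, while in replicate 1 the top 5% (35) held 24.9%, close to the sham sections (24.4% and 25.3%). Apoe had a median spot of 444 CPM and a highest spot of 9013 CPM at MI day 3. Its top 5% of spots held 38.8% of the gene's total in replicate 2, 29.9% at MI day 3 and between 21.8% and 24.3% in the other sections. The high means of Clu and Apoe at MI day 3 and in replicate 2 thus came with a long upper tail, and at MI day 3 the 10th percentile of spots was above 0 too, at 140 CPM for Clu and 176 CPM for Apoe.

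**Figure D1:**
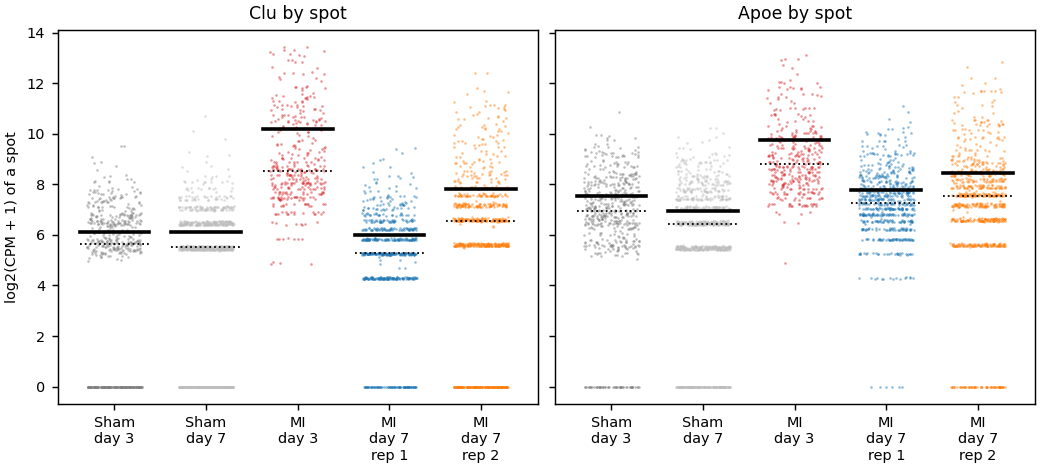
Clu (left) and Apoe (right) in every spot of the 5 sections, as log2(CPM + 1) on the vertical axis, with 1 point per spot, a solid line at the log2 of the section mean plus 1 and a dotted line at that of the median spot. Clu means are 68.8, 68.1, 1159, 63.7 and 225 CPM from left to right and Apoe means are 187, 121, 868, 220 and 351 CPM, and the solid line lies above the dotted line in every section.

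The highest spots of Clu lay together in the MI sections, and those of Apoe did so less evenly. Moran's I, which is near 0 for a gene scattered at random over neighbouring spots and near 1 for a gene in a single patch, was 0.844 for Clu at MI day 3, rank 2 of 12933 genes, and 0.703 for Apoe, rank 22. Clu had 0.0798 and 0.0651 at sham day 3 and sham day 7, and Apoe 0.152 and 0.134. MI day 7 replicates 1 and 2 lay between, with 0.281 and 0.317 for Clu and 0.362 and 0.280 for Apoe. The median over all genes was between 0.0042 and 0.0280. By rank among the genes, Clu was at 339 and 468 in the sham sections and at 131 and 139 in MI day 7 replicates 1 and 2. Apoe was at 118 and 156 in the sham sections and at 59 and 181 in these replicates, so that its rank in replicate 2 was no better than in sham. Of the 19 highest Clu spots at MI day 3, 17 formed a single patch of touching spots, while the 48 highest in the sham day 7 section fell into 31 patches. The largest patch held 25% and 14.6% of the high Clu spots in the sham day 3 and day 7 sections, 89.5% at MI day 3, and 54.3% and 62.5% in MI day 7 replicates 1 and 2. For Apoe it held 25%, 37.5%, 52.6%, 34.3% and 55% in the same order, so replicate 1 lay between the sham sections. The maps of both genes at MI day 3 show a bright flank on the left of the section. Clu had 1.40 and 1.54 counts per spot in the sham sections against 40.7 at MI day 3, and Apoe 3.69 and 2.76 against 30.1. The part of these counts in Moran's I, the ranks and the patches was not tested. No change in spatial pattern between sham and MI is therefore read from them.

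**Figure D2:**
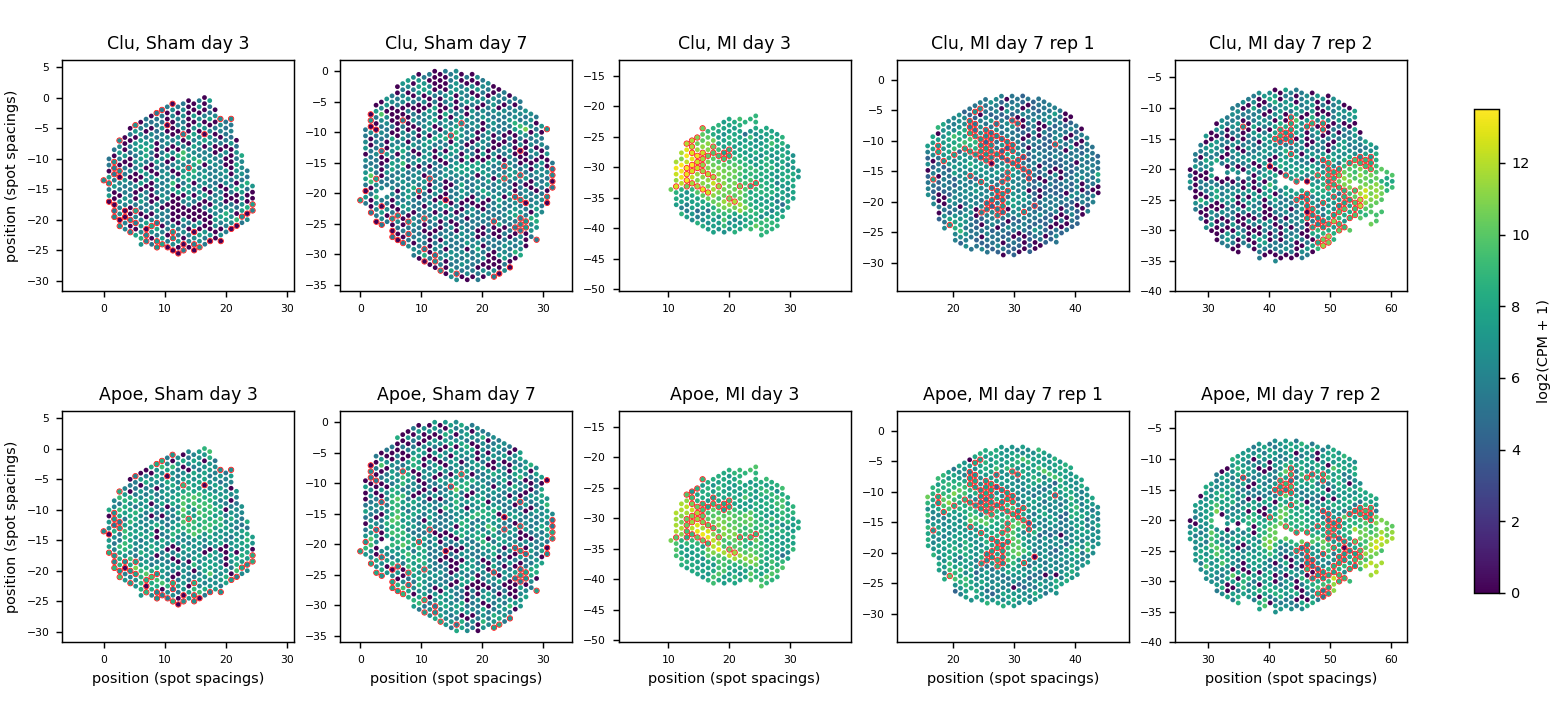
Position of each spot in units of the spot spacing, coloured by log2(CPM + 1) of Clu (top row) and Apoe (bottom row), with CM4-dominant spots ringed in red and the 21 spots without a neighbour left out. The bright area is on the left flank at MI day 3 and on the right flank in MI day 7 replicate 2. The high Clu spots of the sham sections are scattered, in sections with 1.40 and 1.54 counts of Clu per spot on average.

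The dominant score separated the members at MI day 3. The scores were made from the same expression tables, so the class means are a description and carry no test. CM4-dominant spots of the MI day 3 section (40 spots) held 3745 CPM of Clu on average (SD over spots 3059), against 396 CPM in the CM1-dominant spots (211) of that section. For Apoe the same classes held 967 and 413 CPM. Markers of other cell types were also higher in the CM4-dominant than in the CM1-dominant spots of this section, with macrophage markers at 1174 against 344 CPM and fibroblast markers at 8253 against 3484 CPM. Stressed cardiomyocyte markers summed to 28982 against 7892 CPM. Their part in the class means was not tested. Macrophage-dominant spots (20) were high in both, with 5171 CPM of Clu and 4094 CPM of Apoe, and FB-dominant spots (22) held 1849 and 2624 CPM. The EndoEC-dominant spots (32) had 878 CPM of Clu and 1004 CPM of Apoe.

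In MI day 7 replicate 2 Clu was 465 CPM in CM4-dominant spots (86), 737 in FB-dominant spots (94), 1035 in macrophage-dominant spots (13), 739 in EPI-dominant spots (15) and 72.2 in CM1-dominant spots (491). Apoe in the same classes was 245.5, 929, 2748, 2257 and 149 CPM. Replicate 1 had the same order of CM1, CM4 and FB for Clu at lower levels, 35.3, 81.8 and 166 CPM, but its macrophage-dominant spots (21) were at 25.6 CPM, below CM1. Macrophage-dominant spots were not alike between the replicates, with macrophage markers summing to 654 CPM in replicate 1 and 3891 CPM in replicate 2, against 9705 CPM at MI day 3. Their part in the class means was not tested.

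In sham hearts the classes lay closer together for Clu. It was 48.9 and 50.3 CPM in CM1-dominant spots of the sham day 3 and day 7 sections, 56.5 and 55.2 in CM4-dominant spots, 98.4 and 96.3 in FB-dominant spots and 123 and 81.3 in EndoEC-dominant spots. Apoe was 127 and 72.9 CPM in CM1-dominant spots and 165 and 115 in CM4-dominant spots. It was 238 and 190 CPM in FB-dominant spots, 326 and 209 in EndoEC-dominant spots and 402 and 177 in macrophage-dominant spots. For Apoe the sham sections were not flatter in every class. EndoEC-dominant spots held 2.56 and 2.87 times the Apoe of CM1-dominant spots in the sham sections, 2.43 times at MI day 3 and 3.05 and 2.90 times in MI day 7 replicates 1 and 2. Macrophage-dominant spots held 3.16 and 2.43 times in sham, 2.04 times in MI day 7 replicate 1, 9.91 times at MI day 3 and 18.4 times in replicate 2.

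Across the 5 sections CM4-dominant spots had more Clu than CM1-dominant spots in 5 of 5, and more Apoe in 5 of 5, an order held by 8.90% of all genes filtered. The mean log2 difference was 1.49 ± 1.42 (SD, n = 5) for Clu, rank 3 of 12933 genes, and 0.68 ± 0.34 for Apoe, rank 274. The Clu difference ran from 0.13 in a sham section to 3.24 at MI day 3. FB-dominant spots exceeded CM1-dominant spots in 5 of 5 sections for each member, as did 31.4% of all genes, by 1.94 ± 1.00 (Clu) and 1.86 ± 0.78 (Apoe). EndoEC-dominant spots did so in 5 of 5 for each member, as did 17.0% of all genes. The EndoEC difference of Apoe, 1.45 ± 0.13, varied least between sections and that of Clu was 0.82 ± 0.45. Macrophage-dominant spots exceeded CM1-dominant spots in 5 of 5 sections for Apoe (2.29 ± 1.39) and in 4 of 5 for Clu (1.58 ± 2.03), against 12.4% of genes with 5 of 5. For EC-dominant spots the count was 3 of 5 for Apoe and 4 of 5 for Clu, and 14.0% of genes had 5 of 5.

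**Figure D3:**
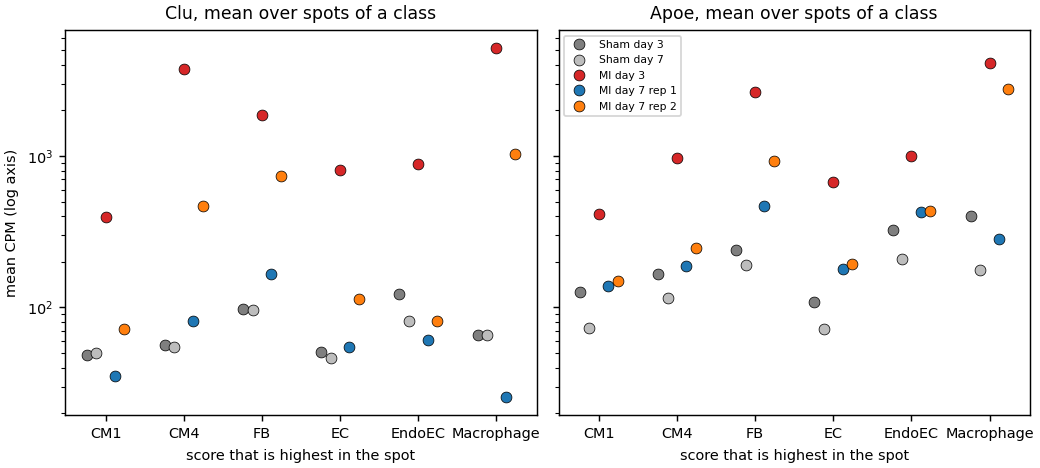
Mean CPM (log axis) of Clu (left) and Apoe (right) over the spots of each dominant score class, with 1 point per section. At MI day 3 CM4-dominant spots reach 3745 CPM for Clu and 967 CPM for Apoe, while the macrophage-dominant spots are high for both at 5171 and 4094 CPM.

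The ratio of mean Clu to mean Apoe compared the pair within a set of spots. It is read here only for how it changes between sets, since the capture of each transcript is unknown. CM4-dominant spots had a ratio of 3.87 at MI day 3 and 1.89 in MI day 7 replicate 2, against 0.958 and 0.484 in the CM1-dominant spots of those sections. In MI day 7 replicate 1 the CM4 ratio was 0.438 and the CM1 ratio 0.255. In the sham sections the CM4 ratios were 0.342 and 0.478 and the CM1 ratios 0.384 and 0.690 at day 3 and day 7. No order is read from these, since Clu had 1.40 and 1.54 counts per spot there. Macrophage-dominant spots had ratios of 0.164, 0.370, 1.26, 0.0905 and 0.377 in the sham day 3, sham day 7, MI day 3 and MI day 7 replicate 1 and 2 sections. FB-dominant spots ran from 0.357 to 0.794. CM4-dominant spots of the MI day 3 section were thus the class in which Clu most exceeded Apoe among the classes with at least 10 spots in a section.

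The highest spots of the members were mostly different spots. At MI day 3 the top 5% of spots by Clu (19) were 12 CM4-dominant and 7 macrophage-dominant spots, while the top 5% by Apoe were 13 macrophage-dominant, 6 FB-dominant and 0 CM4-dominant spots. The sets shared 3 of 19 spots, yet 16 of the 19 Apoe spots lay within 2 steps of a high Clu spot, where 19.1% of all spots of the section did. The high Clu spots summed to 24223 CPM of stressed cardiomyocyte markers and 4628 CPM of macrophage markers, and the high Apoe spots to 11376 and 9020 CPM. In MI day 7 replicate 2 the high Clu spots (40) were mostly FB-dominant (23), with 8 CM4-dominant and 6 macrophage-dominant spots. The 40 high Apoe spots there were 19 FB-dominant, 11 EPI-dominant and 9 macrophage-dominant spots, and 14 spots were in both sets. In replicate 1 FB-dominant spots led both sets, with 27 of 35 for Clu and 23 of 35 for Apoe, and 9 spots were shared. High Apoe spots of the sham sections were mainly FB-dominant (14 of 28 and 37 of 48), followed at day 3 by 8 EndoEC-dominant spots.

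Spearman's rank correlation across the spots of each section gave the cell type scores that each member followed. Spots of a section share a library and a make-up that adds to 1, so it is given as a description with no p. The mean value per spot in the tables was low in the sham sections (1.40 and 1.54 for Clu, 3.69 and 2.76 for Apoe), higher at MI day 3 (40.7 and 30.1) and between 3.42 and 11.8 at MI day 7, and weak correlations at such low counts are not read as findings. Among the 11 scores, FB had the highest mean rank correlation for each gene, 0.402 ± 0.199 for Clu and 0.395 ± 0.121 for Apoe (SD over 5 sections). By section, the rank correlation of Clu with the FB score was 0.238 and 0.189 in the sham day 3 and day 7 sections, 0.679 at MI day 3, and 0.50 and 0.406 in MI day 7 replicates 1 and 2. For Apoe it was 0.267, 0.305, 0.574, 0.389 and 0.440 in the same order.

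The CM4 score split the pair within the MI sections. The rank correlation of Clu with it was 0.664 at MI day 3 and 0.401 and 0.373 in MI day 7 replicates 1 and 2, and that of Apoe 0.374, 0.231 and 0.0978. In the sham sections the values were -0.0962 and -0.161 for Clu and -0.0979 and -0.126 for Apoe. The macrophage score had higher rank correlations with Apoe than with Clu in MI day 7 replicates 1 and 2 (0.257 and 0.418 against 0.194 and 0.299), and about the same at MI day 3 (0.563 and 0.552). In the sham sections the values were 0.333 and 0.158 for Apoe and 0.0037 and 0.0110 for Clu, and no order is read from them since Clu had few counts per spot there. Clu also had fewer counts than Apoe in MI day 7 replicates 1 and 2 (3.42 against 11.8 and 4.58 against 7.02 per spot), and the part of this in their order was not tested. The EndoEC score went with Apoe at similar strength in all sections, 0.387, 0.239, 0.255, 0.370 and 0.344. For Clu it was 0.278, 0.135, 0.188, 0.285 and 0.174. The CM1 score, the commonest cardiomyocyte state, had negative rank correlations with each gene in 5 of 5 sections, down to -0.560 for Clu and -0.535 for Apoe at MI day 3.

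Marker lists that hold neither member were compared in the same way. With the 7 fibroblast markers, Clu had rank correlations of 0.202 and 0.134 in the sham day 3 and day 7 sections, 0.650 at MI day 3 and 0.424 and 0.447 in MI day 7 replicates 1 and 2. Apoe had 0.260, 0.289, 0.678, 0.404 and 0.440. With the 10 macrophage markers, Apoe had rank correlations of 0.416 and 0.326 in the sham day 3 and day 7 sections, 0.752 at MI day 3 and 0.493 and 0.488 in MI day 7 replicates 1 and 2. Clu had 0.156, -0.0218, 0.672, 0.157 and 0.308. Apoe was thus above Clu in the 3 MI sections for these markers, with the same limit on the counts of Clu at MI day 7, and the sham order is not read. The mean of Apoe over sections was higher with the macrophage list (0.495) than with the fibroblast list (0.414), unlike the order of the FB and macrophage scores. The injury phagocyte list (4 genes measured) did not divide the pair in the MI sections, with Clu at 0.685, 0.137 and 0.313 and Apoe at 0.650, 0.166 and 0.311 at MI day 3 and in MI day 7 replicates 1 and 2. In the sham sections Clu was at 0.108 and -0.0420 and Apoe at 0.282 and 0.179. With the 6 stressed cardiomyocyte markers Clu was above Apoe in the 3 MI sections, at 0.678, 0.409 and 0.376 against 0.405, 0.225 and 0.130. In the sham sections both were near 0 (Clu 0.0814 and 0.0395, Apoe -0.0033 and -0.0462), and no order is read from them. The general cardiomyocyte list (Tnnt2, Myh6, Actn2, Ryr2, Tnni3 and Pln) had negative rank correlations with both genes in all sections, lowest at MI day 3 (-0.689 for Clu, -0.627 for Apoe). Raw UMI depth of the spot had rank correlations between -0.178 and 0.185 with Clu and between -0.258 and 0.0271 with Apoe. The rank correlation between the members was 0.145 and 0.147 in the sham sections, 0.658 at MI day 3, and 0.373 and 0.386 at MI day 7.

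**Figure D4:**
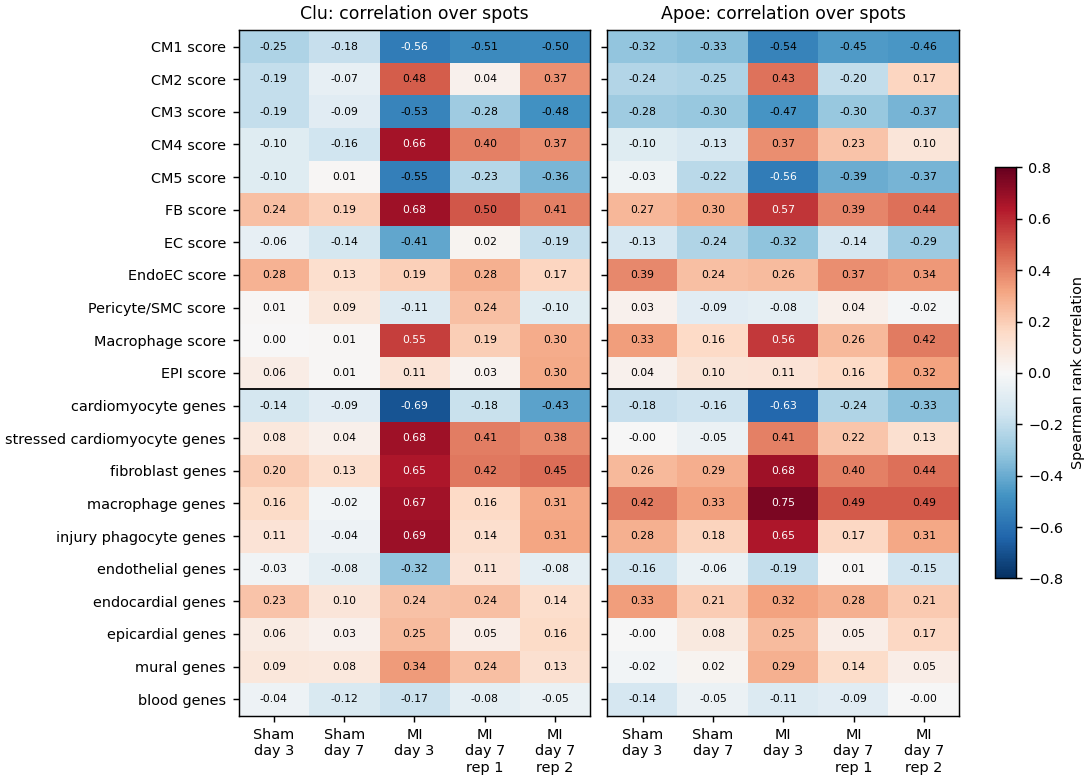
Spearman's rank correlation across the spots of each section between the CPM of Clu (left) or Apoe (right) and each cell type score (above the line) or marker list (below it), coloured from blue (negative) to red (positive). The CM4 score and the stressed cardiomyocyte genes are redder for Clu in the MI sections, as are the macrophage genes for Apoe.

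The distance from the nearest CM4-dominant spot, counted in steps between neighbouring spots, set the pair apart at MI day 3. Clu was lower with each step, from 3745 CPM at 0 steps (40 spots) to 2166 at 1 step (75), 1100 at 2 (53), 362 at 3 (42) and 254 at 4 or more (156). Apoe was highest 1 step away, with 967, 1809, 1169, 542 and 388 CPM in the same bins. Clu in MI day 7 replicate 2 was again lower with each step, from 465 CPM at 0 steps to 88.4 at 4 or more. Apoe there had another shape than at MI day 3, going from 245.5 CPM at 0 steps through 398 and 436 up to 474 at 3 steps, and was at 298 at 4 or more, above its 0-step value. In replicate 1 both genes were highest at 1 step, with Clu at 81.8 CPM at 0 steps, 92.1 at 1 step and 35.4 at 4 or more, and Apoe at 187, 295 and 162 CPM. The sham sections were flat for Clu, between 55.2 and 73.7 CPM over all bins. Apoe at sham day 3 was 165 CPM at 0 steps, 215, 200 and 241 at 1 to 3 steps and 141 at 4 or more, and at sham day 7 it lay between 114 and 132 CPM. Lower Apoe in CM4-dominant spots than 1 step away was thus seen in the sham sections as well as in the MI sections.

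Counted from the macrophage-dominant spots instead, both genes were lower with each step at MI day 3. Clu was 5171 CPM at 0 steps (20 spots), 4158 at 1 step (30), 1980 at 2 (29), 1167 at 3 (28) and 414 at 4 or more (259), and Apoe was 4094, 1953, 958, 818 and 496 CPM. From the same class in MI day 7 replicate 1, Clu instead was higher with each step, at 25.6, 38.8, 43.0, 49.7 and 77.2 CPM, and in replicate 2 it was lower with each step, from 1035 to 153 CPM. The fall of Clu with distance at MI day 3 was therefore not particular to the CM4-dominant spots, while Apoe at MI day 3 peaked at 1 step from the CM4-dominant but not from the macrophage-dominant spots.

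Far from the CM4-dominant spots, at 4 or more steps, CM1-dominant spots at MI day 3 (131 spots) held 234 CPM of Clu, against 49.3 CPM (95 spots) and 51.8 CPM (160) in the sham sections and 28.8 (171) and 52.7 (268) in MI day 7 replicates 1 and 2. Apoe in these spots was 363 CPM at MI day 3, 113 and 72.4 CPM in the sham sections, and 136 and 145 CPM in MI day 7 replicates 1 and 2. The genes were chosen by their MI and sham levels, so nothing is read from the order of these groups.

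**Figure D5:**
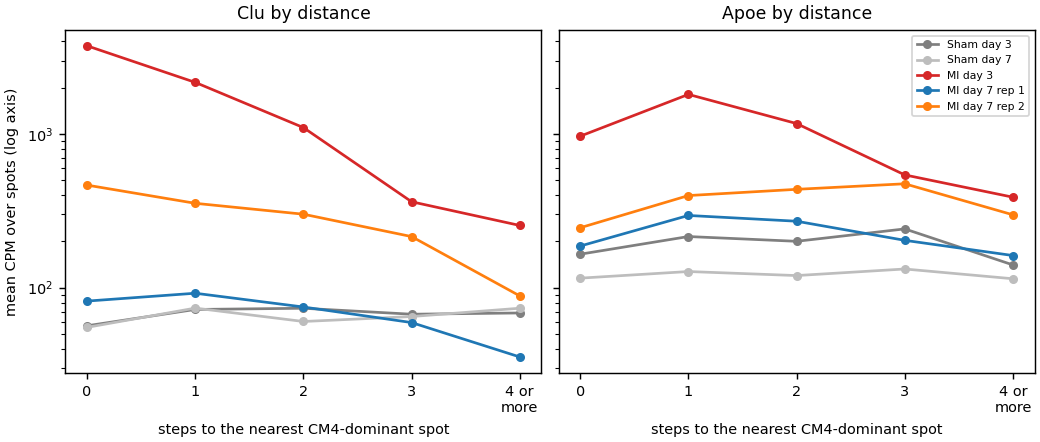
Mean CPM (log axis) of Clu (left) and Apoe (right) by the number of steps to the nearest CM4-dominant spot, with 1 line per section. At MI day 3 Clu goes from 3745 CPM at 0 steps to 254 at 4 or more, and Apoe peaks at 1809 CPM at 1 step.

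Position on the section was not used to choose the genes, so edge spots (fewer than 6 neighbours) and interior spots could be compared by a test, with the section as a block (limma, 13308 genes). Clu was 61.2 CPM at the edge and 70.3 inside in the sham day 3 section, 58.5 and 69.4 at sham day 7, and 957 and 1219 at MI day 3. In MI day 7 replicate 1 it was 54.0 at the edge and 65.3 inside, and in replicate 2 it was 287 and 209. The edge was thus lower in 4 of 5 sections and higher in replicate 2. Over the 5 sections the difference was -0.12 on the log2(CPM + 1) scale (SE 0.08), with a limma adjusted p of 0.345, while the median of all genes was -0.13. Without MI day 7 replicate 2 it was -0.27 (SE 0.06) with a limma adjusted p of 0.0030, and the median of all genes was again -0.13. Under median-of-ratios scaling, which moves the median of all genes to near 0, the difference of Clu over 5 sections was 0.017.

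For Apoe the edge was lower than the interior at day 3 (147 and 195 CPM in the sham section, 705 and 917 in the MI section), about level at sham day 7 (125 and 121) and in MI day 7 replicate 1 (225 and 219), and higher in replicate 2 (615 and 283). The difference over 5 sections was 0.09 (SE 0.13), with a limma adjusted p of 0.671. Without replicate 2 it turned to -0.17 (SE 0.06, limma adjusted p 0.0824). In replicate 2, 25 of the 40 highest Apoe spots were at the edge and 11 were EPI-dominant, and their part in the edge difference was not tested. Epicardial markers summed to 549 CPM over all 15 EPI-dominant spots of that section, and fibroblast markers to 29068 CPM. Neither member passed the threshold, which 4.79% of genes did, 98 of them higher and 539 lower at the edge (177 and 51 under median-of-ratios scaling).

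Genes most like each member were sought among the 5843 with a mean of at least 20 CPM, by the mean over 5 sections of the within-section rank correlation. For Clu they were Col1a2 (0.433), Col1a1 (0.416), Mgp (0.414), Bgn (0.409), Mfap4 (0.406), Sparc (0.40), Nppa (0.40) and Col3a1 (0.393). Of these, 7 encode collagens or other matrix proteins, and Nppa encodes the atrial natriuretic peptide precursor that ventricular cardiomyocytes make in early life and under stress. Over the 3 MI sections alone Nppa came first (0.587, with 0.750 at MI day 3), followed by Col1a2, Col1a1, Mfap4 and Sparc. Over the 2 sham sections Ltbp4, Mgp, Col3a1, Fbn1 and Col1a2 led, at 0.241 or less.

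For Apoe the list was Col3a1 (0.493), Col1a2 (0.473), Col1a1 (0.454), Mgp (0.425), Sparc (0.423), Lyz2 (0.423), Bgn (0.421) and Ftl1 (0.412). Lyz2 is the lysozyme of macrophages and neutrophils, and Ftl1 the light chain of the iron store ferritin. Over the MI sections Col3a1, Col1a2, Col1a1, Mfap4 and Mgp led, and over the sham sections Col3a1, Col1a2, Igf2, Fn1 and Eln. The lists of 8 thus shared 6 genes, all of the matrix, while Nppa and Mfap4 were in that of Clu alone and Lyz2 and Ftl1 in that of Apoe alone. Each member ranked within the first 31 of the other (rank correlation 0.342). At the low end were mitochondrial transcripts, mt-Cytb (-0.401), mt-Co1 and mt-Co3 for Clu, and Cox6a2 (-0.362), a muscle subunit of cytochrome oxidase, mt-Cytb and mt-Co1 for Apoe.

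Partner genes of the pair were taken from 5 lists (68 genes, of which 46 were measured and 42 passed the filter) and compared between MI and sham by limma with day as a covariate. None of the 42 passed an adjusted p of 0.05, and 0.00773% of all genes did (1 gene, Cyfip2, named because it was the only gene called). At an unadjusted p under 0.05, 15 of the 42 were higher and 1 was lower in MI, where 692 and 356 of all 12933 were. No other tool was run, and with 2 residual degrees of freedom a p that misses the threshold does not show that levels were alike. The MI day 7 sections were biologically independent replicates, and each of the other sections was a single biological sample of its group.

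Among receptors, 0 of 13 tested passed, with a median log2 difference of 0.06 against -0.01 over all genes. Trem2, a receptor of phagocytes that binds lipids and both apolipoproteins, was at 3.41 and 2.18 CPM in the sham day 3 and day 7 sections, 39.9 at MI day 3, and 4.99 and 7.65 in MI day 7 replicates 1 and 2 (log2 difference 2.05, SE 0.43, limma adjusted p 0.375). Its signalling adaptor Tyrobp was at 25.4, 20.1, 131, 29.3 and 34.2 CPM. Lrp1, a large endocytic receptor for apolipoprotein E and many other ligands, was at 47.8, 61.2, 94.9, 69.6 and 99.9 CPM. For these 3 genes the MI sections lay above the sham sections.

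Of the genes of lipid loading and efflux, 0 of 15 passed, 13 had a positive difference and the median was 0.49. Abca1, which passes cholesterol to apolipoproteins outside the cell, was at 14.9 and 11.3 CPM in the sham day 3 and day 7 sections and 40.1, 20.7 and 16.0 CPM in the MI sections. Npc1, which moves cholesterol out of lysosomes, was at 25.4 and 19.6 CPM in sham and 42.6, 33.7 and 32.4 CPM in MI (log2 difference 0.72, SE 0.11, limma adjusted p 0.323). The lipid droplet coat gene Plin2 was at 51.0 and 33.4 CPM in sham and 99.3, 40.7 and 55.3 CPM in MI, so that replicate 1 lay between the sham sections. Lpl, the lipase that frees fatty acids from circulating lipoproteins, lay between 496 and 584 CPM in all sections (log2 difference -0.0017).

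In the complement list 0 of 5 passed and 4 had a positive difference, with a median of 0.78. Serping1, the inhibitor of C1, was at 30.0 and 43.4 CPM in sham and 62.3, 54.1 and 79.7 CPM in MI. C3, the central complement component, was uneven, with 16.9 and 0.819 CPM in sham and 54.1, 7.15 and 88.8 CPM in MI.

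Of the chaperones other than clusterin 0 of 8 passed, 0 were past an unadjusted p of 0.05, 6 had a positive difference, and the median was 0.06. Cryab, the most abundant small heat shock protein of the heart in the list, was at 1025.5 and 1224 CPM in the sham day 3 and day 7 sections and 828, 959 and 1253 CPM in the MI sections. Hspa5 and Hsp90b1, chaperones of the endoplasmic reticulum, were at 312 and 268 CPM at MI day 3 against 385 and 292 CPM in its sham section. This order did not hold at day 7. There Hspa5 was at 261 CPM in sham and 268 and 254 CPM in MI replicates 1 and 2, and Hsp90b1 at 206, 232 and 231 CPM. Of 14 other apolipoprotein genes listed, 2 were measured and only Apoc1 was tested, which is named for that reason (0.885 and 0.460 CPM in sham, 15.9, 1.21 and 1.18 CPM in MI).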

How the data were processed

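Values were those of 5 Visium sections. Per the study's methods, the authors aligned reads to GRCm38 with Space Ranger and used Seurat with sctransform. The deposited sham day 3 table held raw UMI counts and the other 4 held sctransform-corrected counts, a score the authors' tool rounds to whole numbers. The deposited metadata gave raw UMI counts, cell type scores as a fraction from 0 to 1 (TransferData) and spot positions in pixels. A model for raw counts was therefore not used. Each spot was scaled to CPM over the 13711 shared genes and spots were averaged by section, the replicate. Because the tables were normalized differently, small differences from the sham day 3 section carry that limit.

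Section means were tested as log2(CPM + 1) by limma (3.58.1, R 4.3.3) with a mean-variance trend, for genes at 1 CPM or more in at least 2 profiles, with two-sided p adjusted by the Benjamini-Hochberg method over all genes. A fold on this scale understates low genes. The script was tested on simulated data. Neighbours were spots within 1.25 times the median spacing. The members and lists were chosen with earlier results of these data known. Named genes were the 8 most like, the 5 over MI or sham sections and the 3 least like, plus list genes at 20 CPM or more in a section. Gene positions are from GENCODE on GRCm38, the build of the files. Names turned into dates (19 and 20 in 2 tables) were left out. Depth and precision follow the UMI totals in the report. Alternatives were other scalings, pseudocounts, filters, spot sets and leaving out each section, and leaving out spots without a neighbour was chosen after seeing the data. Some genes of the lists are not reported here.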

Additional observations from a re-analysis of the deposited data

Results flagged for a closer look

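The edge minus interior difference of Clu in MI day 7 replicate 2 was 0.46 on the log2(CPM + 1) scale, and it stood apart from the other 4 sections, which lay between -0.35 and -0.20, by a gap of 0.812 of the whole range. Of 35 quantities examined in this way over the 5 sections, 1 stood apart, and about 1 in 20 would by chance. The sections do not form a single group, since they differ in surgery and day.

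The rank correlation of a member with a score had opposite signs in every MI and every sham section for 3 pairs. Clu with the CM4 score had a mean of 0.480 over the 3 MI sections and -0.128 over the 2 sham sections. For Clu with the CM2 score the means were 0.296 and -0.129, but MI day 7 replicate 1 was at 0.0368. Over interior spots alone that section was at -0.0186, and by Pearson's r of log2 values sham day 7 was at 0.0076, so the opposite signs of this pair did not hold under these settings. For Apoe with the CM4 score the means were 0.234 and -0.112. The differences between MI and sham sections were not tested, and the sham values rest on 1.40 to 3.69 table counts per spot.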

How the results depend on the processing

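MI and sham sections could not be paired, since each section was its own biological sample. Edge and interior spots were compared within sections. The day-adjusted difference between MI and sham was 2.20 (log2) for Clu and 1.62 for Apoe. Scaling, pseudocount, the median over spots and leaving out detached spots kept it at 1.46 to 2.21 for Clu and 1.34 to 1.63 for Apoe, within 1 SD of the MI day 7 replicates. Leaving out each section gave 0.81 to 4.05 for Clu and 1.19 to 2.21 for Apoe, the lowest Clu value without either day 3 section and the highest without the sham day 7 section. The edge difference of Clu changed sign under median-of-ratios scaling (0.017) and ran from -0.27 to -0.064 over the sections left out. That of Apoe ran from -0.17 to 0.21, negative only without MI day 7 replicate 2. The cause of these changes was not tested. Edge calls were 98 higher and 539 lower, but 177 and 51 under median-of-ratios scaling, 123 and 99 without mitochondrial and haemoglobin genes, and from 49 and 83 to 86 and 696 over the sections left out. The rank correlation with the FB score kept within 1 SD over sections under every alternative tried (0.297 to 0.456 for Clu, 0.330 to 0.427 for Apoe), and FB stayed the highest score whichever section was left out. Of the partner genes, 0 were called between MI and sham, 1 under median-of-ratios scaling, and 0 to 8 over the sections left out, all higher in MI. The most, 8, came without the sham day 7 section, which leaves that arm with 1 section, assumed to vary like the others. Over all genes 1 was called, 2 higher and 1 lower under median-of-ratios scaling, and up to 319 higher and 47 lower without the sham day 7 section. Depth limits the sham sections most, where Clu had 1.40 and 1.54 table counts per spot.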
